A study of Mus musculus with 12 samples.

Results

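The 9 transcripts described here encode peptidases of the intestinal lining: Ace, Enpep, Dpp4, Anpep, Mme, Mep1a, Mep1b, Pepd and Naaladl1. They were chosen by name, as the rows of the gene table whose Ensembl identifiers carry these symbols in GENCODE M21 (genome build GRCm38), and the rule uses no measured value. The names were, however, chosen with earlier results of these data known. All 9 were found among 53715 gene identifiers, and all 9 passed the filter on low counts, which uses all groups and can be passed on the ileal level alone. Dietary protein reaches the intestinal epithelium as short peptides, and peptidases anchored in the apical membrane of enterocytes, the brush border, trim these to amino acids and to peptides of 2 or 3 residues for uptake. Several of the same enzymes also inactivate peptide hormones. Most of them hold a zinc ion in the active site. Dpp4 is a serine peptidase, and Pepd is a cytosolic enzyme that depends on manganese, so that the name brush border peptidase does not describe where Pepd acts.

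RNA was measured in ileal and colonic mucosa of mice that lack Slc39a8, a transporter of manganese and zinc, in the intestinal epithelium (Slc39a8-IEC KO, genotype Slc39a8-fl/fl:Villin-Cre) and of control mice (labelled Slc39a8-fl/fl). There were 12 libraries, 3 per tissue and genotype, each from 1 male mouse of 8 weeks on the C57BL/6J strain. Villin-Cre acts in epithelial cells, so other cells of the mucosa keep Slc39a8, and the study's methods allow controls of other kinds besides floxed ones (wild-type or Cre alone), which the labels do not tell apart. Levels are given as CPM (counts scaled to the size of the library, with TMM factors that correct for differing composition), or as TPM where 2 genes are compared, since TPM also divides by transcript length.

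The promoters of the members are shown first, because the 9 transcripts differed between ileum and colon in 1 direction and the promoters can be set beside that difference. RefSeq promoters (build GRCm38.p6) were searched for 7 of the 9 members, with 10 start sites. Naaladl1 had no matching promoter, and Mep1b was left out of the search. The 250 bases before the start were searched on both strands for the letters of factors and elements known from intestinal or metal-responsive genes. For GATA factors these were AGATAA, for HNF4 they were CAAAGTC, for the core site of HNF1 they were GTTAAT and for the TATA box TATAAA. For CDX factors a first form was TTTATG, while the other form tested was TTTACG. For the metal response element a first form was TGCACNC, while the other form tested was TGCGCNC. Capitals mark every match. The 6 promoters shown are those of the 5 members with a match (for Mme, the start site with 2 matches) and that of Mep1a, which had none and the smallest difference between ileum and colon. Pepd, not shown, also had no match, and it was 28.0-fold lower in control colon. TATAAA read in reverse shares 5 letters with TTTATG, and no matches overlapped in these windows.
Anpep promoter, chr7:79848211-79848460, minus strand: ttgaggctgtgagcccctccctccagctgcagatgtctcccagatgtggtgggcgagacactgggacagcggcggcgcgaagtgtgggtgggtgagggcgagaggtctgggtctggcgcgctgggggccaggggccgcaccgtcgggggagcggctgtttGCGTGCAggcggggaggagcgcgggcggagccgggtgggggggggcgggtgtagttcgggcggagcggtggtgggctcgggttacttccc
Enpep promoter, chr3:129332750-129332999, minus strand: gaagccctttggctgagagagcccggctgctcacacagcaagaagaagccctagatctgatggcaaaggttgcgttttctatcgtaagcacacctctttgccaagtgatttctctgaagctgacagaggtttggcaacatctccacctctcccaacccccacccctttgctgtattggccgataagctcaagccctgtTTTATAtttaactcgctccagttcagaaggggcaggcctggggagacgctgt
Ace promoter, chr11:105967698-105967947, plus strand: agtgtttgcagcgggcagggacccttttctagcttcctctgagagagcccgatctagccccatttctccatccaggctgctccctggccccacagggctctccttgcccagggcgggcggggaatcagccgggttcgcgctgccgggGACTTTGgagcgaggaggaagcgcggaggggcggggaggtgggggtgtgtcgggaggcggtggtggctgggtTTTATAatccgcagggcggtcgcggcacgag
Dpp4 promoter, chr2:62412232-62412481, minus strand: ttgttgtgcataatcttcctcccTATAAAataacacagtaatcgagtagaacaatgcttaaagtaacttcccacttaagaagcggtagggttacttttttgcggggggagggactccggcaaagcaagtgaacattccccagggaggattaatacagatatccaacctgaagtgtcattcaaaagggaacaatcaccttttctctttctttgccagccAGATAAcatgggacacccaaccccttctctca
Mme promoter, chr3:63295622-63295871, plus strand: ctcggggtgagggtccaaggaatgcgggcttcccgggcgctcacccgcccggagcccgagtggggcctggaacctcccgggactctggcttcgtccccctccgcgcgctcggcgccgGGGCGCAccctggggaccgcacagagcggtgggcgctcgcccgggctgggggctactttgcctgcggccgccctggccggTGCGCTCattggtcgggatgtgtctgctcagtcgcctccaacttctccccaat
Mep1a promoter, chr17:43502774-43503023, minus strand: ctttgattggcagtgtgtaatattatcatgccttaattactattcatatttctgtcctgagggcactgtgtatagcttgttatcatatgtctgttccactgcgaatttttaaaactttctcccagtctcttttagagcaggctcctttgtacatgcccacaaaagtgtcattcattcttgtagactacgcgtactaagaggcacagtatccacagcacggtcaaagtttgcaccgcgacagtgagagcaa

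TATAAA was found for Ace, Enpep and Dpp4, ending 26, 47 and 222 bases before the start, and 12.4% of 32851 promoters of the same length hold it. AGATAA was found for Dpp4 alone, 32 to 27 bases before the start, against 9.99% of all promoters. CAAAGTC was found for Ace alone, in its reverse form, against 3.84% of all promoters. The metal response element letters were found for Anpep, as TGCACNC in reverse form (10.4% of all promoters), and for 2 of the 3 Mme start sites, as TGCGCNC (12.5%). None of the 10 windows held GTTAAT (6.43% of all promoters), TTTATG (10.8%) or TTTACG (2.61%). A match is a string of letters and not a measured binding site.

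The libraries held 16749138 to 27903083 expected counts each. Slc39a8 itself was at 8.39, 5.22 and 6.59 CPM in control ileum and at 4.35, 2.62 and 2.80 CPM in KO ileum, and at 20.8, 20.5 and 20.1 CPM in control colon and at 7.35, 11.5 and 7.93 CPM in KO colon, so that the genotypes did not overlap in either tissue. The small intestinal enterocyte markers summed to 20947 to 27300 CPM in ileal and 1050 to 1716 CPM in colonic libraries, as the tissue labels say. Smooth muscle transcripts were nearly missing from ileum control replicate 3 and ileum KO replicate 1, where Acta2, smooth muscle actin, stood at 7.14 and 4.89 CPM against 398 to 537 CPM in the other 4 ileal libraries. Ileum KO replicate 2 held 2632 CPM of the colonic gene Car1 (3.40 to 144 CPM in the other ileal libraries), and colon KO replicate 3 held 26.8 CPM of the ileal gene Fabp6 (5.76 to 6.55 CPM in the other colonic libraries), although all 8 enterocyte markers together summed to 1050 CPM there, the lowest colonic value. In whole mucosa, fewer cells of a type and less RNA per cell cannot be told apart.

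The first comparison is between the 2 segments of the intestine. The 9 peptidases together took 1.83% to 2.37% of all counts in an ileal library and 0.119% to 0.163% in a colonic library. All 9 were lower in colon in both genotypes at an adjusted p under 0.1, and for all 9 every colonic library lay below every ileal library. Of 16558 genes tested, 19.6% were called lower in colon in control mice and 20.0% in KO mice, while 16.2% and 17.1% were called higher, and the groups did not overlap with colon lower for 20.4% of genes in control and 24.9% in KO mice. The median log2 difference of the 9 was -5.25 in control and -5.20 in KO mice, beside 0.02 and 0.01 over all genes tested.

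**Figure D1:**
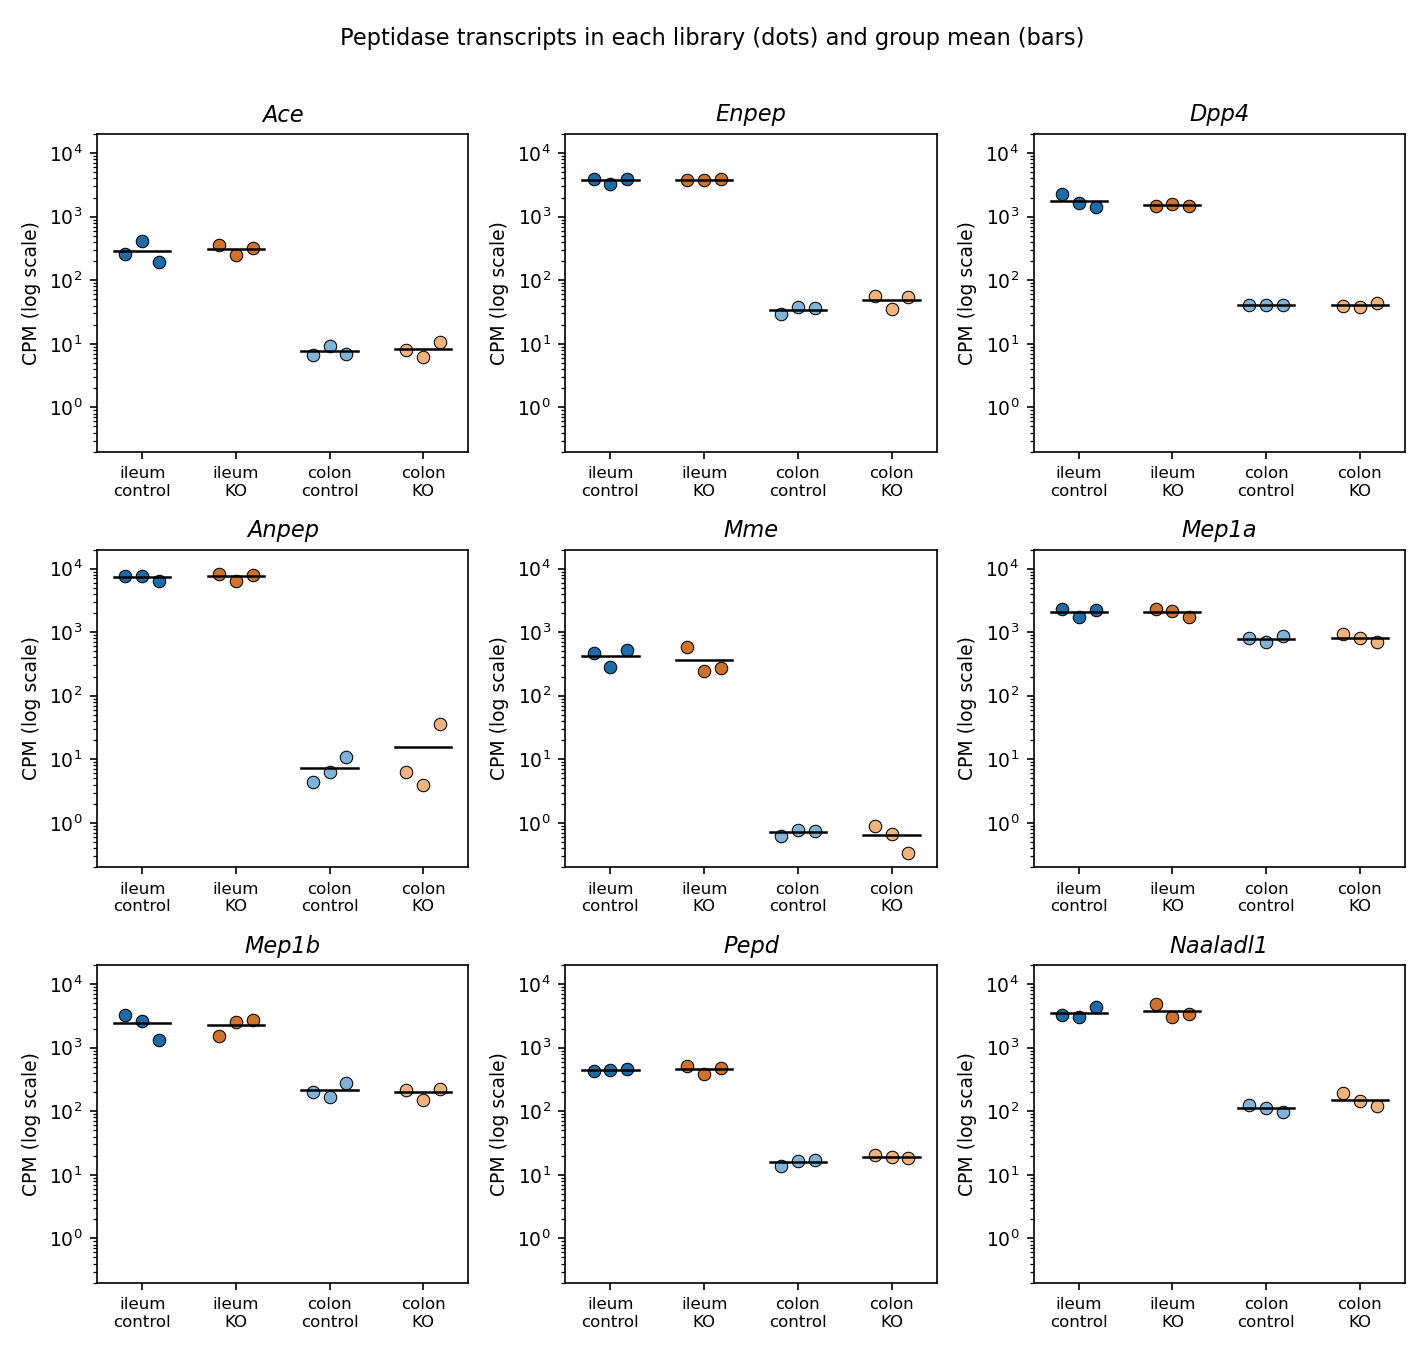
CPM (log scale) of the 9 peptidases in each of 12 libraries (dots) with the mean of each group of 3 (bars). Every colonic dot lies below every ileal dot in all 9 panels, from Anpep (7333 against 7.19 CPM in control mice) to Mep1a (2072 against 787 CPM), and the control and KO dots lie side by side.

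Among the aminopeptidases, Anpep (aminopeptidase N, chr7:79821803-79861059), which removes neutral residues from the amino end of peptides, was the most abundant member in ileum. It stood at 7777, 7771 and 6451 CPM in control ileum, at 8254, 6501 and 7918 CPM in KO ileum, at 4.35, 6.24 and 11.0 CPM in control colon and at 6.36, 3.99 and 35.9 CPM in KO colon. The last value, of colon KO replicate 3, was over 3 times every other colonic value. In control mice Anpep was 1019-fold lower in colon (log2 difference -9.99 ± 0.93 (SE, n = 3 per group), edgeR, Benjamini-Hochberg adjusted p = 1.4e-05). In KO mice the log2 difference was -8.93 ± 0.89 with colon KO replicate 3 and -10.51 without it.

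Enpep (glutamyl aminopeptidase, chr3:129269175-129332720) removes acidic residues and converts angiotensin II to angiotensin III. Its levels were 3929, 3305 and 3973 CPM in control ileum, 3791, 3818 and 3862 CPM in KO ileum, 29.7, 37.5 and 36.0 CPM in control colon and 55.7, 35.6 and 54.5 CPM in KO colon. It was 109-fold lower in control colon (log2 difference -6.76 ± 0.24, edgeR adjusted p = 2.6e-08) and 78.6-fold lower in KO colon (-6.30 ± 0.24). All 6 ileal libraries lay within 3305 to 3973 CPM.

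Among the enzymes that release dipeptides, Dpp4 (dipeptidyl peptidase 4, chr2:62330073-62412231) cleaves after a penultimate proline or alanine and inactivates incretin hormones. Dpp4 stood at 2265, 1639 and 1442 CPM in control ileum, at 1451, 1570 and 1485 CPM in KO ileum, at 41.5, 41.3 and 41.0 CPM in control colon and at 39.2, 38.6 and 44.6 CPM in KO colon. It was 43.2-fold lower in control colon (log2 difference -5.43 ± 0.20, edgeR adjusted p = 3.0e-08) and 36.8-fold lower in KO colon. T cells also carry Dpp4 (as CD26), and 5 of 6 T cell markers were lower in control colon, with a sum of 19.7 to 58.4 CPM in ileal and 8.16 to 19.4 CPM in colonic libraries and none at 0. Their part in the Dpp4 difference was not tested.

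Ace (angiotensin-converting enzyme, chr11:105967945-105989964) removes dipeptides from the carboxyl end and is also a product of endothelium. It was measured at 262, 415 and 197 CPM in control ileum, 364, 252 and 326 CPM in KO ileum, 6.60, 9.36 and 6.92 CPM in control colon and 7.96, 6.27 and 10.7 CPM in KO colon. The fall was 38.2-fold in control mice (log2 difference -5.25 ± 0.33, edgeR adjusted p = 8.0e-07) and 37.8-fold in KO mice. The 6 endothelial markers summed to 8.98 to 19.7 CPM in ileal and 10.8 to 26.9 CPM in colonic libraries, with none at 0, and 1 of the 6 was higher and none lower in control colon.

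Naaladl1 (chr19:6105782-6115792), a zinc-binding relative of glutamate carboxypeptidase II, stood at 3317, 3029 and 4319 CPM in control ileum, 4843, 3014 and 3436 CPM in KO ileum, 125, 112 and 96.9 CPM in control colon and 192, 143 and 121 CPM in KO colon. It was 32.0-fold lower in control colon (log2 difference -5.00 ± 0.28, edgeR adjusted p = 3.6e-07) and 24.8-fold lower in KO colon. Pepd (prolidase, chr7:34912379-35044708) splits dipeptides that end in proline or hydroxyproline inside the cell. Pepd was at 428, 442 and 462 CPM in control ileum, 518, 389 and 475 CPM in KO ileum, 13.8, 16.6 and 17.1 CPM in control colon and 20.3, 18.8 and 18.7 CPM in KO colon. Its fall was 28.0-fold in control mice (log2 difference -4.81 ± 0.16, edgeR adjusted p = 2.5e-08) and 23.9-fold in KO mice, so the cytosolic member lay among the membrane enzymes.

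The endopeptidases, which cut within a chain, held both the lowest and the highest member in colon. Mme (neprilysin, chr3:63241537-63386030), which degrades natriuretic peptides and enkephalins, stood at 463, 281 and 530 CPM in control ileum and 579, 243 and 276 CPM in KO ileum. In colon it was at 0.614, 0.768 and 0.753 CPM in control and 0.895, 0.673 and 0.332 CPM in KO mice, from 8 to 19 counts per library. The difference was 590-fold in control mice (log2 difference -9.21 ± 0.51, edgeR adjusted p = 3.5e-07) and 580-fold in KO mice, with a large counting error at so few colonic counts.

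Mep1a and Mep1b encode the alpha and beta subunits of meprin, a metalloendopeptidase of which the beta subunit anchors the enzyme in the membrane and the alpha subunit can be secreted. Mep1a (chr17:43474324-43502812) stood at 2275, 1735 and 2208 CPM in control ileum, 2316, 2119 and 1706 CPM in KO ileum, 804, 697 and 859 CPM in control colon and 922, 801 and 704 CPM in KO colon. It was 2.63-fold lower in control colon (log2 difference -1.40 ± 0.18, edgeR adjusted p = 1.8e-04) and 2.53-fold lower in KO colon. Mep1b (chromosome 18) stood at 3212, 2660 and 1342 CPM in control ileum, 1500, 2548 and 2717 CPM in KO ileum, 202, 170 and 280 CPM in control colon and 216, 150 and 226 CPM in KO colon, which was 11.1-fold lower in control colon (-3.47 ± 0.37, edgeR adjusted p = 3.8e-05) and 11.4-fold lower in KO colon. Of all genes tested in control mice, 8.15% had a lower log2 difference than Mep1a, 1.87% a lower one than Mep1b and 0.223% a lower one than Anpep.

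**Figure D2:**
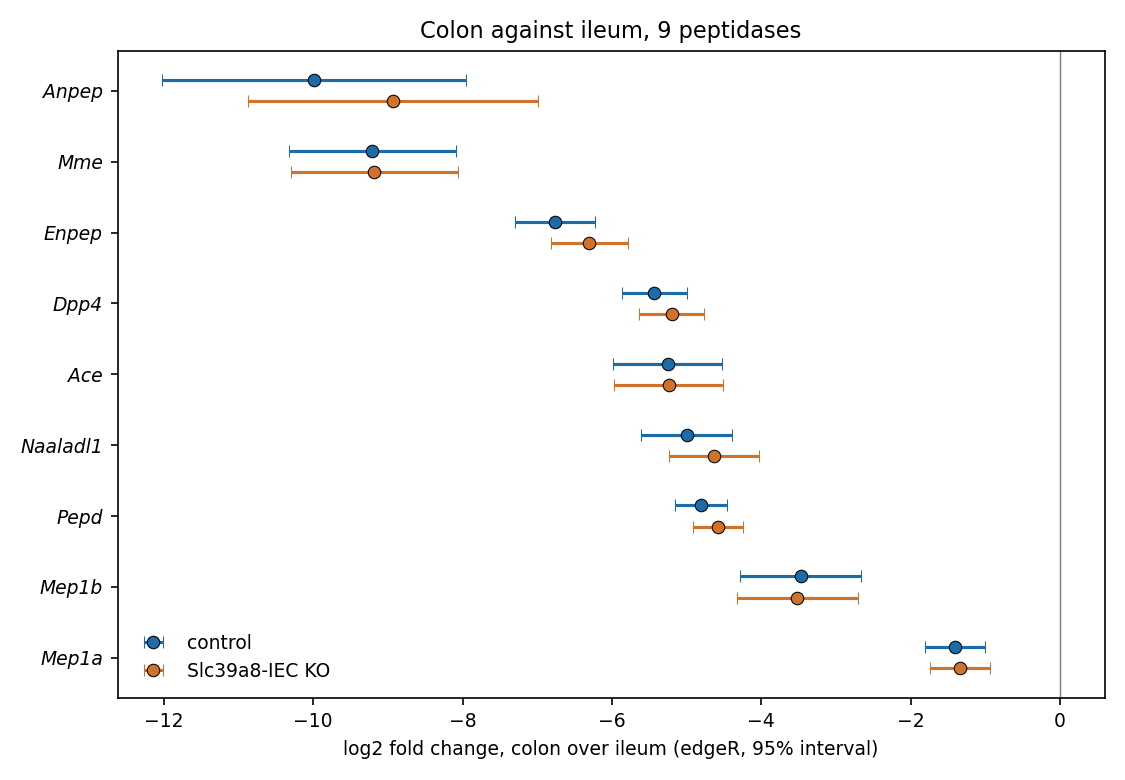
Log2 fold change of colon over ileum for each peptidase (dots) with its 95% interval from edgeR (bars), in control and Slc39a8-IEC KO mice, 3 libraries per group. All 18 intervals lie below 0, and in control mice the dots run from -9.99 for Anpep to -1.40 for Mep1a.

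The ratio of the meprin subunits differed between the segments. Per transcript length, Mep1b over Mep1a was 1.86, 2.02 and 0.800 in control ileum, 0.852, 1.58 and 2.09 in KO ileum, 0.330, 0.321 and 0.429 in control colon and 0.308, 0.246 and 0.422 in KO colon. Every colonic ratio lay below every ileal ratio (mean log2 difference -2.08, exact two-sided permutation test within genotype, p = 0.005, the smallest that 400 arrangements allow). The ratio was not among the planned tests, and its difference between segments restates the unequal falls of Mep1b and Mep1a given above. Between genotypes the mean log2 difference of the ratio was -0.10 (exact two-sided permutation test within tissue, p = 0.725). The 2 ileal ratios under 1 belonged to the libraries that lacked smooth muscle transcripts. Whether a mouse gave both an ileal and a colonic library is not in the labels, and the permutation takes all libraries as independent.

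**Figure D3:**
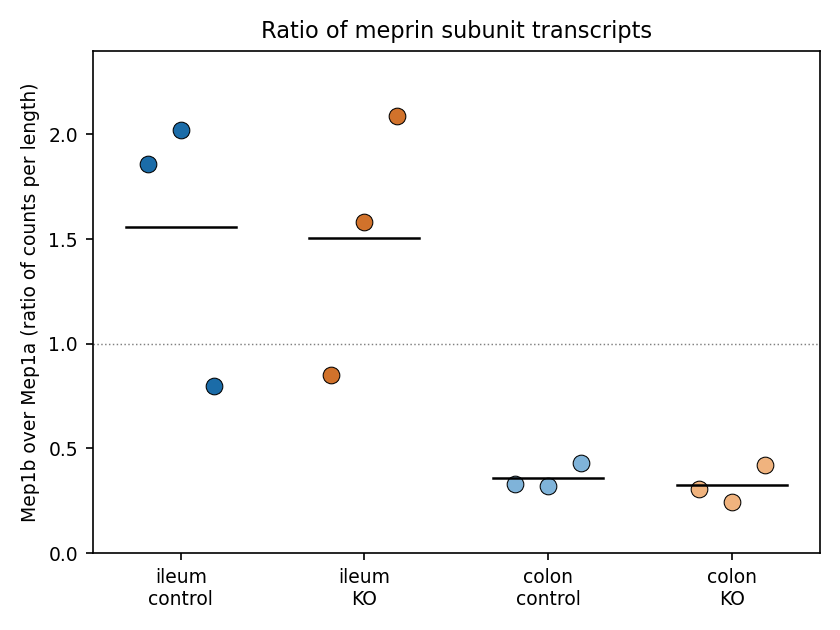
Ratio of Mep1b to Mep1a counts per transcript length in each library (dots) with the group mean (bars), linear axis from 0, dotted line at 1. The 6 colonic ratios lie between 0.246 and 0.429 and the 6 ileal ratios between 0.800 and 2.09.

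The order of the members by length-corrected level was also different between the segments. In control ileum Anpep led with 3450 ± 133 TPM (SD, n = 3), followed by Naaladl1 (2854 ± 975 TPM), Mep1b (1731 ± 505 TPM), Enpep (1567 ± 333 TPM) and Mep1a (1184 ± 272 TPM). Dpp4 (544 ± 78.9 TPM), Pepd (284 ± 52.5 TPM), Ace (106 ± 33.7 TPM) and Mme (73.6 ± 30.4 TPM) came after them. Anpep and Naaladl1, Mep1b and Enpep, Enpep and Mep1a, and Ace and Mme were neighbours in this order whose ranges over the 3 libraries overlapped. In control colon Mep1a led with 529 ± 82.5 TPM, ahead of Mep1b (194 ± 63.7 TPM) and Naaladl1 (103 ± 7.19 TPM), and these 3 did not overlap. Enpep (17.1 ± 3.92 TPM), Dpp4 (15.2 ± 1.75 TPM) and Pepd (8.94 to 13.9 TPM) overlapped as neighbours, as did Anpep (4.15 ± 2.29 TPM) and Ace (3.38 ± 0.941 TPM), and Mme was last at 0.145 ± 0.0331 TPM. Anpep stood at rank 1 of 9 in ileum and rank 7 in colon, in control and in KO mice. In KO colon that rank rested on colon KO replicate 3: without it Anpep averaged 3.26 TPM, under Ace at 3.50 TPM, and with it the range of Anpep overlapped those of its neighbours Pepd and Ace. With the longest transcript in place of all exons as the length, Pepd moved ahead of Enpep and Dpp4 in control colon (16.6, 16.2 and 15.3 TPM) and ahead of Dpp4 in KO colon (22.9 and 17.4 TPM).

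Most epithelial marker transcripts moved in the same direction as the peptidases. Of 7 epithelial markers, 6 were lower in control colon, and their sum was 13912 to 17505 CPM in ileal and 7432 to 8346 CPM in colonic libraries, with none at 0. When each library was scaled to 6 of these markers, all 9 members were still called lower in both genotypes, with log2 differences in control mice from -9.32 for Anpep to -0.72 for Mep1a. That scaling raised the median of all genes from 0.02 to 0.70, and each member shifted by about as much.

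Genes around the same pathway were read from 4 lists of 58 genes, of which 48 passed the filter, and 30 of the 48 were called between control ileum and colon, 24 of them lower in colon. Of 9 tested peptidases of the gut lining besides the members, 5 were lower and none higher in control colon, with a median log2 difference of -0.44. In KO mice 4 were lower and 1 higher, with a median of -0.04. In control mice Xpnpep2, a membrane aminopeptidase P, had a log2 difference of -6.39 ± 0.36, Ggt1, a glutathione-cleaving transferase, of -3.91 ± 0.23 and Dpep1, a membrane dipeptidase, of -1.02 ± 0.17. Folh1, glutamate carboxypeptidase II, was at 0 in control ileum and at 0.0317 CPM in control colon, and Tmprss15, enteropeptidase, was at 0 in all groups.

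Of 18 intracellular peptidases, 9 were lower in control colon and 1 higher, with a median of -0.51. Those with the smallest p were Xpnpep1 (-3.92 ± 0.19) and Cndp2 (-3.23 ± 0.17), which cleave short peptides and dipeptides in the cytosol, Lta4h, an aminopeptidase that also makes leukotriene B4 (-1.44 ± 0.12), and Pgpep1, which removes pyroglutamate (-1.42 ± 0.13). Dpp8 (-0.01 ± 0.15) and Tpp1, a lysosomal tripeptidyl peptidase (0.10 ± 0.11), did not pass the test. Of 17 tested relatives by peptidase family, 5 were lower and 6 higher, with a median of 0.38. Among those higher in colon were Ece1, the endothelin-converting relative of Mme (79.8 CPM against 39.8 CPM in ileum), Xpnpep3, a mitochondrial relative of Pepd (1.05 ± 0.19), and Naaladl2, a relative of Naaladl1 (2.73 ± 0.41). Kel and Astl, relatives of Mme and of the meprins, were at 0 in all groups. Of 10 tested carriers of peptides and amino acids, 9 were lower and none higher, with a median of -4.21, among them Slc6a19, the neutral amino acid carrier (-8.86 ± 0.28), Slc6a20a, the imino acid carrier (-5.96 ± 0.30), Slc7a9 (-4.79 ± 0.23) and Slc7a7 (-4.13 ± 0.23), while Slc36a1 did not pass (0.12 ± 0.22). The peptide carrier Slc15a1 (PepT1) had a log2 difference of -5.42 ± 0.45. All values are from edgeR with 3 libraries per group.

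The second comparison asks whether loss of Slc39a8 from the epithelium went with a change in these transcripts, most of whose products need a metal. In older mice the paper measured less manganese in KO ileum and colon, while zinc in the tissues was no different from control. None of the 9 passed the threshold in ileum, in colon, over both tissues or in the difference between tissues (edgeR, Benjamini-Hochberg adjusted p = 0.998 to 1), and 0% of all genes tested were called in each of these 4 comparisons. The deleted gene was itself not called in these fits: Slc39a8 was 2.19-fold lower over both tissues (log2 difference -1.13 ± 0.17, edgeR adjusted p = 0.382) and had an adjusted p of 1 in ileum and in colon. Of 23 alternative fits over both tissues, 4 called Slc39a8. Its exact two-sided permutation test within tissue gave p = 0.005, the smallest possible. The paper reported it as downregulated with DESeq2. Its qPCR gave a much stronger loss in KO ileum and colon, and it found no SLC39A8 staining in monolayers grown from KO mice. At an unadjusted p under 0.05 there was 1 member, Enpep in colon, against 1.52% of all genes in ileum, 2.33% in colon, 3.87% over both tissues and 1.02% for the difference. DESeq2 and limma-voom called 0 of the 9 in each comparison as well, with no adjusted p from DESeq2 for Anpep.

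**Figure D4:**
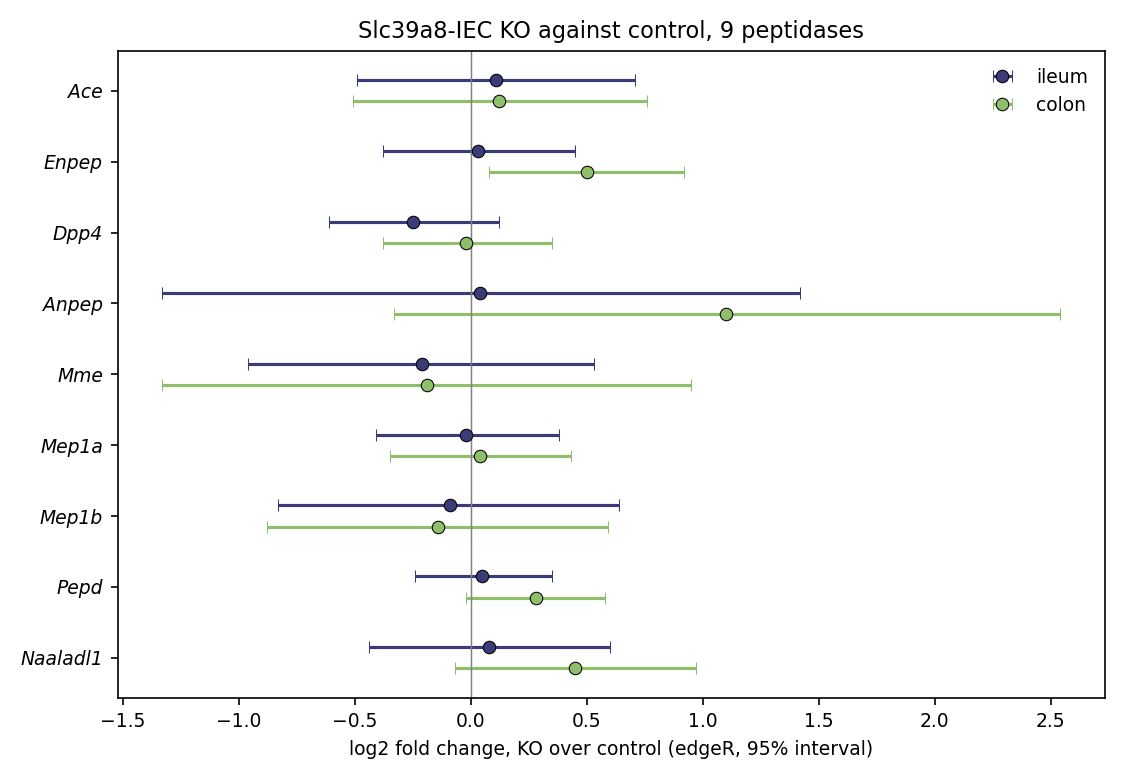
Log2 fold change of Slc39a8-IEC KO over control for each peptidase (dots) with its 95% interval from edgeR (bars), in ileum and in colon, 3 libraries per group. All 9 ileal and 8 of 9 colonic intervals include 0, the widest being those of Anpep, and Enpep in colon runs from 0.08 to 0.92.

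In ileum the log2 differences between KO and control ran from -0.25 ± 0.17 for Dpp4 to 0.11 ± 0.27 for Ace, with a median of 0.03. Pepd was held most closely, with a 95% interval of the fold from 0.846 to 1.27, followed by Dpp4 (0.655 to 1.08), Mep1a (0.752 to 1.30) and Enpep (0.768 to 1.36). The intervals of Mme (0.514 to 1.45), Mep1b (0.564 to 1.56), Ace (0.712 to 1.64) and Naaladl1 (0.739 to 1.52) were wider, and that of Anpep ran from 0.398 to 2.67. The model takes 1 dispersion per gene over all 4 groups, so the ileal interval of Anpep also carries its spread in colon. The highest Anpep value was 1.21 times the lowest in control ileum and 1.27 times in KO ileum, but 8.99 times in KO colon. No member had ileal genotypes that did not overlap, against 3.70% of all genes tested.

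In colon 6 of the 9 were higher and 3 lower in the KO group mean, with a median log2 difference of 0.12. Enpep had a log2 difference of 0.50 ± 0.19 (edgeR, unadjusted p = 0.0234, adjusted p = 1), and its KO libraries at 55.7 and 54.5 CPM lay above all 3 controls while that at 35.6 CPM lay within them. Naaladl1 had a difference of 0.45 ± 0.24 and Pepd of 0.28 ± 0.14, and neither passed the test. Pepd was the only 1 of the 9 whose colonic genotypes did not overlap (18.7 to 20.3 CPM in KO and 13.8 to 17.1 CPM in control mice). Of all genes tested, 12.8% had colonic genotypes that did not overlap, counting both directions. The 95% interval of the log2 difference of Pepd was -0.02 to 0.58.

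Anpep had the largest difference in colon, at 1.10 ± 0.65 on the log2 scale, and this rested on colon KO replicate 3. Without that library the log2 difference was -0.46, and over both tissues it changed from 0.55 to -0.17. Of the 8 small intestinal enterocyte markers, 4 were higher in this library than in every other colonic library and none lower. Fabp6 was 0.515% of its ileal mean against 0.119% in the other colonic libraries, Apoa1 0.0956% against 0.0306%, Apoa4 0.563% against 0.0546% and Alpi 12.6% against 7.20%, beside 0.482% against 0.0857% for Anpep. The sum of the 8 was nonetheless the lowest of all colonic libraries, at 1050 CPM against 1083 to 1716 CPM, with Fabp2 at 665 CPM (616 to 1348 CPM) and Sis at 123 CPM (122 to 215 CPM). Among the members, Ace and Dpp4 were also above the other colonic libraries and Mme below them (0.0840% of its ileal mean against 0.187%). The part of such ileal transcripts in the Anpep value was not tested.

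Over both tissues the log2 differences were between -0.21 ± 0.27 for Mme and 0.55 ± 0.46 for Anpep. Naaladl1 (0.27 ± 0.17), Enpep (0.26 ± 0.14) and Pepd (0.16 ± 0.10) were the next highest, and Mep1a was nearest to 0 (0.01 ± 0.12). Exact two-sided permutation tests within tissue, over 400 arrangements with 0.005 as the smallest p, gave p = 0.105 for Pepd, 0.15 for Enpep and 0.175 for Naaladl1, and the other 6 were between 0.3 and 0.93. The genotype effect of colon minus that of ileum passed the test for none of the 9, and its median over all genes tested was 0.00. It was positive for 8 of 9 members, of which Ace (0.01 ± 0.40), Mme (0.03 ± 0.67) and Mep1a (0.06 ± 0.25) were near 0. The largest were those of Anpep (1.06 ± 0.90, but -0.49 without colon KO replicate 3) and Enpep (0.47 ± 0.27). Of the 48 tested pathway genes, 0 were called over both tissues by edgeR, DESeq2 or limma-voom, and 1, in the list of carriers, had an unadjusted p under 0.05.

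The spread among ileal libraries was itself uneven over the members. The 2 ileal libraries that lacked smooth muscle transcripts, 1 of each genotype, held Mep1b at 1342 and 1500 CPM against 2548 to 3212 CPM in the other 4, and Dpp4 at 1442 and 1451 against 1485 to 2265 CPM. Mme was at 530 and 579 CPM against 243 to 463 CPM, and Naaladl1 at 4319 and 4843 against 3014 to 3436 CPM. The other 5 members overlapped. So 2 of 9 members lay above and 2 below the other ileal libraries, beside 23.2% and 27.2% of all genes tested. The same 2 libraries were higher in sums of Paneth cell markers (8974 and 6854 CPM against 2579 to 3442 CPM), in B cell markers (38.7 and 45.8 against 3.73 to 8.11 CPM), and in goblet cell markers (12236 and 12395 against 9083 to 9866 CPM), with none of these markers at 0. They were lower in markers of T cells (19.7 and 22.8 against 45.6 to 58.4 CPM), of macrophages and dendritic cells (73.7 and 70.3 against 129 to 154 CPM) and of stroma (42.6 and 39.3 against 291 to 557 CPM), again with none at 0. Their part in these differences was not tested.

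**Figure D5:**
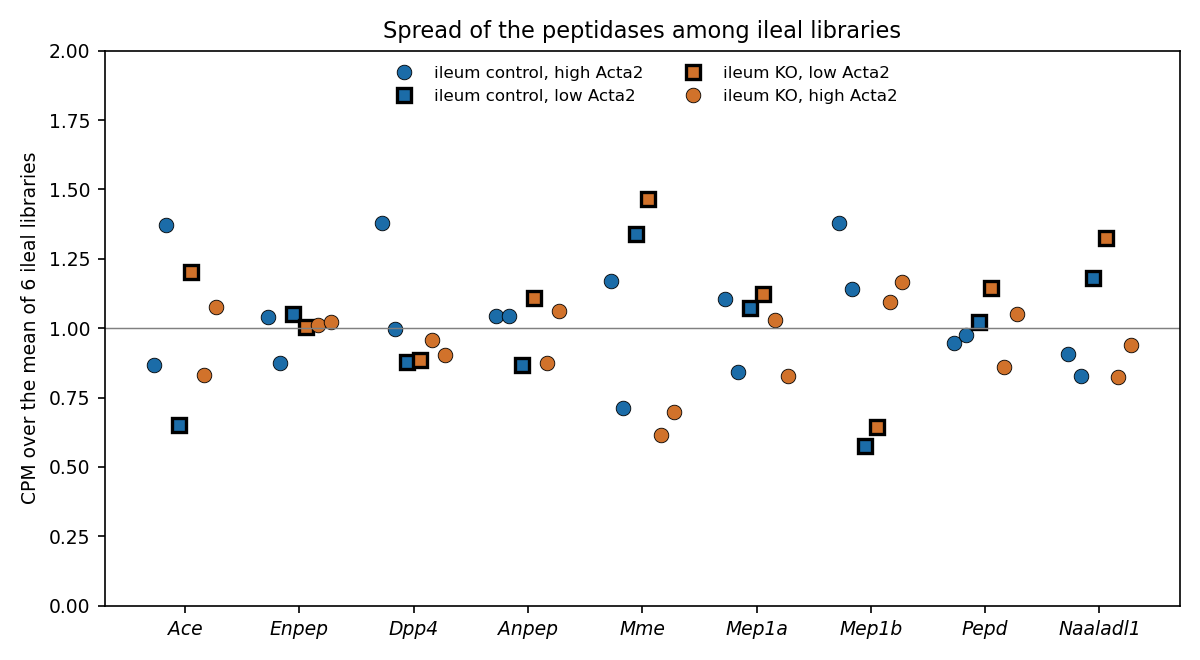
CPM of each peptidase in the 6 ileal libraries, divided by the mean of the 6 (linear axis from 0), with control in blue and KO in orange and squares for the 2 libraries low in the smooth muscle transcript Acta2. The squares lie below all circles for Mep1b and Dpp4 and above all circles for Mme and Naaladl1.

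Within these kinds of library the ratio of KO to control stayed near 1 for Mep1b, at 1.12 between the 2 libraries low in smooth muscle and 0.897 among the other 4. For Mme it was 1.09 and 0.698, for Dpp4 1.01 and 0.783, and for Naaladl1 1.12 and 1.02. Ace had the widest pair of values, 1.85 and 0.855. With 1 library of each genotype in the first kind, these ratios have no replicate error.

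The genes whose log2 CPM most resembled each member over the 12 libraries were read as a description, with Pearson correlations of 0.991 to 0.999 for the 3 nearest genes of each. The 12 points are 6 ileal and 6 colonic libraries that fall into 2 clusters by segment for most members, and all genes share these libraries and their depth. The nearest gene was Npc1l1 for Enpep, Smoc2 for Anpep, Lrrc59 for Ace, Treh for Mme, Smim24 for Naaladl1, Mfap3 for Mep1a and, for Mep1b, Gm44974, an annotated transcript within the Anpep locus. Enpep and Pepd were among the 3 nearest genes of each other (r = 0.998). Annotated genes overlap 6 of the 9 members, among them the antisense genes Gm11651 at Ace and Gm13561 at Dpp4, and the sources do not say whether reads were counted by strand. Gm44974 lies on the same strand as Anpep, so counting by strand would not part it from Anpep.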

How the data were processed

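RNA primed with oligo-dT from the mucosa of ileum and colon was sequenced (12 libraries, 3 mice per tissue and genotype), and libraries were grouped by the sample labels, and every column of the table had a library. The authors deposited 1 table of expected counts, which are estimates of read numbers by gene, not all whole and not normalized. The submitters' processing notes name STAR and mm10, and the paper names counting of uniquely mapped reads after removal of duplicates, while the tool that made the estimates was not given in the sources used here. Of 53807 lines, 92 named no gene and held 0 counts. They stayed out of library sizes and tests.

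Expected counts were rounded. edgeR 4.0.16 (R 4.3.3) kept 16558 genes by filterByExpr, and TMM factors, glmQLFit and glmQLFTest gave p-values adjusted by the Benjamini-Hochberg method over all of them, with the threshold of 0.1 that the paper used. Genotype over both tissues was fitted with tissue as an additive term, and the other comparisons came from 1 model of the 4 groups. Standard errors were derived from the log2 fold change and its F value. TPM was computed from the unrounded expected counts and the length of merged GENCODE M21 exons. Permutation tests used log2 of CPM plus 0.5, and correlations used log2 CPM with a prior count of 2. DESeq2 1.42.0, limma 3.58.1 (voom), other scalings, other filters, a replicate block and libraries left out were tried as alternatives, and the steps were tested on simulated data. Depth was 16749138 to 27903083 counts per library, and intervals of values from few counts are limited by it. Members, gene lists and motifs were chosen with earlier results of these data known. The text names the 9 members, Slc39a8, the genes of 4 pathway lists that passed the threshold (up to 4 per list and direction by smallest p) or stood at 0 in all groups, Folh1 (at 0 in some), and the 3 genes most correlated with each member. Markers come from the cell type lists, and Dpp8, Tpp1, Slc36a1 and Slc15a1 were named, among the pathway lists, after their values were seen. A gene of the pathway lists is not reported here by name. No protein sequences were used here.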

Additional observations from a re-analysis of the deposited data

How the results depend on the processing

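All 9 members were called lower in colon in both genotypes under each alternative except DESeq2, where 8 were called and Anpep had no adjusted p. All 216 member values of each tissue comparison kept their direction, and all but that of Anpep under DESeq2 their side of the threshold. No alternative called a member for genotype. The direction was kept in 199 of 207 member values over both tissues, 193 of 216 in ileum, 205 of 216 in colon and 182 of 207 for the difference between tissues, and those that changed sign were values that the test had not called. With library size only, the all-gene tissue median rose to 0.24 in control and 0.29 in KO mice, and the share of calls that were lower in colon fell from 54.7% to 33.6% in control and from 53.9% to 29.2% in KO mice (11.6% and 10.5% when scaled to epithelial markers, where the medians were 0.70 and 0.72). Upper-quartile factors gave 44.8% and 41.7% with medians of 0.12 and 0.14. Deviations of same-numbered ileal and colonic libraries from their group means had correlations from -0.08 to 0.16 in control and 0.05 to 0.25 in KO mice. The own number gave the highest correlation for 1 of 3 control and 2 of 3 KO pairs. These values do not settle whether the numbers pair the mice, and the main fits took libraries as independent. A replicate block called the same 9 and 0 members and 27 against 30 pathway genes between tissues. Over all genes, genotype calls over both tissues were 4 with DESeq2, 1 with limma-voom and 5 without the 2 ileal libraries low in smooth muscle, and 0 otherwise among the fits with all libraries.

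The log2 differences between KO and control that changed sign were as follows, and the cause was not tested. Scaled to epithelial markers, Enpep was -0.093, Anpep -0.071, Pepd -0.064 and Naaladl1 -0.038 in ileum, and Mep1a -0.056 in colon and -0.098 over both tissues. With upper-quartile factors Mep1a over both tissues was -0.002. With library size only, Mep1a in ileum was 0.041 and Dpp4 in colon 0.090, and without a filter Dpp4 in colon was 0.015. The replicate block gave -0.009 for Anpep in ileum. With limma-voom the difference between tissues was -0.041 for Ace and -0.031 for Mme. Without the 2 ileal libraries low in smooth muscle, Ace was -0.030 over both tissues and -0.238 in ileum, Anpep -0.121 and Pepd -0.022 in ileum, and the difference between tissues was 0.043 for Mep1b.

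In fits without 1 library each, the values in ileum ran from -0.103 to 0.457 for Ace, -0.046 to 0.081 for Enpep, -0.038 to 0.142 for Anpep, -0.709 to 0.010 for Mme, -0.130 to 0.099 for Mep1a, -0.384 to 0.173 for Mep1b, -0.039 to 0.163 for Pepd and -0.140 to 0.251 for Naaladl1. In colon they ran from -0.083 to 0.298 for Ace, -0.070 to 0.022 for Dpp4, -0.456 to 1.558 for Anpep, -0.550 to 0.157 for Mme, -0.081 to 0.146 for Mep1a and -0.290 to 0.098 for Mep1b. Over both tissues they ran from -0.166 to 0.712 for Anpep and -0.045 to 0.066 for Mep1a. The difference between tissues ran from -0.332 to 0.244 for Ace, -0.493 to 1.521 for Anpep, -0.340 to 0.520 for Mme, -0.066 to 0.172 for Mep1a and -0.314 to 0.256 for Mep1b. Depth limits Mme in colon, with 8 to 19 counts per library.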
